A study of Mus musculus with 9 samples.

Results

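NKG2D is an activating receptor of natural killer (NK) cells and some T cells, and its ligands are cell surface proteins, distantly related to MHC class I, that mark stressed, infected or transformed cells. In the mouse the ligands form the RAE-1, H60 and MULT1 families. NKG2D itself, encoded by Klrk1, has no signalling tail and passes its signal through the adaptor DAP10, encoded by Hcst, and in mouse also through DAP12, encoded by Tyrobp. The genes described here were H60b and H60c, of the H60 family, Ulbp1, which encodes MULT1, Klrk1 and Hcst. They were matched by gene symbol, and where several probe sets carried a symbol the brightest was to be used. Of the 5 listed genes 4 were found, each with 1 probe set, among 17731 genes. H60b had 0 probe sets under this rule and was not analysed here. The same holds for the 6 other ligands listed, H60a and Raet1a to Raet1e, of which 0 were measured. The set was chosen by name as one pathway, with 1 measured value in view, the low level of H60c in IDH1wt against CTL cells, so the differences of H60c are given as a description with no p-value.

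All 3 groups were bone marrow cells of C57BL/6 background, immortalised with HoxA9, transduced with a retroviral vector and transplanted into irradiated syngeneic mice. At 4 weeks, marrow cells with vector fluorescence (GFP) were sorted. IDH1mut cells carried pSF91-IDH1mut-IRES-GFP, IDH1wt cells pSF91-IDH1wt-IRES-EGFP and CTL cells the empty EGFP vector, with 3 Affymetrix arrays of total RNA per group. IDH1 is cytosolic isocitrate dehydrogenase, whose cancer mutants make 2-hydroxyglutarate; the species of the insert, the exact mutation, the insertion sites and the number of founder clones or mice behind each array are not given in the sources used here.

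Values are log2 expression values per probe set, for which the median gene of an array read between 4.92 and 4.99. Correlations between arrays over all genes ran from 0.982 to 0.997. Of the markers of the labelled cells, Itgam (CD11b, an integrin of myeloid cells) read 10.27 ± 0.10 (SD, n = 3 here and in all group means) in IDH1mut, 9.79 ± 0.10 in IDH1wt and 9.80 ± 0.02 in CTL cells. Mpo, the myeloperoxidase of primary granules, read 12.69 ± 0.04 in IDH1mut, 13.35 ± 0.03 in IDH1wt and 13.31 ± 0.03 in CTL cells. Ptprc, which encodes the leukocyte antigen CD45, read 6.63 ± 0.28, 6.31 ± 0.42 and 6.17 ± 0.22 in the same groups, and Kit, the stem cell factor receptor, 4.70 ± 0.22, 4.98 ± 0.09 and 5.25 ± 0.04. Itgam and Mpo were thus far above the array median in all groups, and Kit was near it.

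H60c, a ligand of the H60 family that in mice is best known from skin, was the member that set the groups apart, and it was low in the cells with wild-type IDH1. In IDH1mut cells the 3 arrays read 5.53, 5.41 and 5.77. In IDH1wt cells they read 3.17, 3.22 and 3.62, and in CTL cells 5.36, 6.18 and 5.22. All IDH1wt arrays lay below all others, and the IDH1mut values lay within the range of the CTL values. Group means were 5.57 ± 0.18 in IDH1mut, 3.34 ± 0.25 in IDH1wt and 5.59 ± 0.52 in CTL cells.

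H60c was 4.74-fold lower in IDH1wt than in CTL cells, a difference of -2.25 ± 0.22 log2 units (SE), which by size ranked 14 among the 17731 genes. It was 4.69-fold higher in IDH1mut than in IDH1wt cells (2.23 ± 0.22), at rank 12. The IDH1wt arrays lay below the array medians, in a range where differences of RMA values are compressed and where no detection call is at hand, so these folds and ranks describe the RMA values and are not exact ratios of transcript. Against CTL cells, the IDH1mut difference was -0.02 ± 0.22. The gap between the lowest CTL array and the highest IDH1wt array was 1.59 log2 units, and that between the lowest IDH1mut array and the highest IDH1wt array 1.78. The 3 comparisons share arrays, so the low IDH1wt values enter both large differences. Leaving out any 1 of the 9 arrays moved the IDH1wt against CTL difference between -2.43 and -1.95 and the IDH1mut against IDH1wt difference between 2.13 and 2.37. In bulk RNA, fewer cells with H60c transcript and less transcript per cell cannot be told apart.

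**Figure D1:**
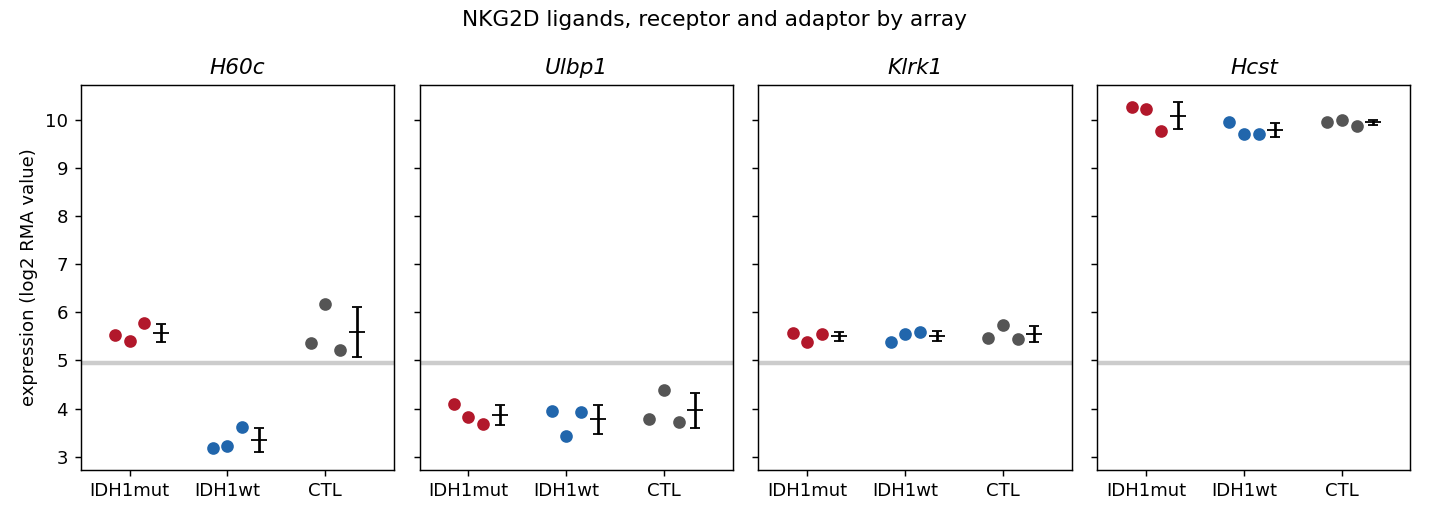
Expression of the 4 measured genes on each of the 9 arrays (points, log2 RMA values, replicates 1 to 3 from left to right in each group), with the group mean ± SD at the right of the points and the range of array medians as a grey band. H60c lies between 3.17 and 3.62 on the IDH1wt arrays and between 5.22 and 6.18 on the others, whereas the groups overlap for Ulbp1, Klrk1 and Hcst.

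H60c and Ulbp1 lie on the same chromosome, and for each the 250 bases before an annotated start are shown. They were picked because the arrays of IDH1wt stood apart for H60c, whereas all groups overlapped for Ulbp1. Both are read 5′ to 3′ on the gene's strand, the minus strand, from RefSeq promoters of GRCm38.p6, at chr10:3267772-3268021 for H60c and chr10:7473478-7473727 for Ulbp1. The annotated gene spans reach further, to 3268091 for H60c and 7473641 for Ulbp1. The H60c window thus lies inside its gene span and the Ulbp1 window partly so, and promoter activity was not measured. Capitals mark CpG dinucleotides, the sites of DNA methylation, which was not measured in these samples.
H60c: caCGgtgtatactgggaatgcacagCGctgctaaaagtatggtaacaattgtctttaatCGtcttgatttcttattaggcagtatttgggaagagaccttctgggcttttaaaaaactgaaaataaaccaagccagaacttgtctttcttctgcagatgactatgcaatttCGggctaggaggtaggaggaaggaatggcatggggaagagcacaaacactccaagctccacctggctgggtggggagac
Ulbp1: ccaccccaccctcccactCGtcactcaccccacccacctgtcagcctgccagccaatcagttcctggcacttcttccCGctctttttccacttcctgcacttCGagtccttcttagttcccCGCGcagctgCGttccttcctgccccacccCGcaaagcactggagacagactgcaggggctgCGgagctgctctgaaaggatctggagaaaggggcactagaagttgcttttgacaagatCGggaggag
The H60c window held 4 CpGs at 45.2% G and C, and the Ulbp1 window 9 CpGs at 59.2%, beside medians of 6 CpGs and 52.4% over 32851 promoter windows of this length. Both windows were searched on both strands for the heat shock element core GAANNTTC (held by 6.69% of all windows), the AP-1 site TGANTCA (6.75%), the Egr site GCGTGGGCG (0.536%) and the E2F site TTTCGCGC (0.256%). The cyclic AMP response element TGACGTCA (1.55%), the GC box GGGCGG (32.7%) and the TATA box TATAAA (12.4%) were searched as well. Each motif had 0 matches in both windows, which says only that these letters do not occur there.

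Ulbp1, whose product MULT1 is a high-affinity ligand held in check at the cell surface by ubiquitination, did not pass the test of differences in any comparison. Its arrays read 4.09, 3.83 and 3.68 in IDH1mut, 3.96, 3.42 and 3.94 in IDH1wt and 3.79, 4.38 and 3.71 in CTL cells. The groups overlapped throughout, and all 9 values lay below the array medians, near the H60c values in IDH1wt cells. Differences are compressed in this range, and a large fall could have been missed. The floor of this probe set was not estimated. The IDH1mut against CTL difference was -0.09 ± 0.19 log2 units (95% interval -0.52 to 0.33, adjusted p = 0.801). It was -0.19 ± 0.19 in IDH1wt against CTL (-0.61 to 0.24, adjusted p = 0.68). Between IDH1mut and IDH1wt cells it was 0.10 ± 0.19 (-0.33 to 0.52, adjusted p = 0.809). These and all later adjusted p-values come from a limma fit to all genes with Benjamini-Hochberg adjustment and a threshold of 0.05, and "rose" and "fell" mark genes past it.

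Klrk1, the receptor gene, is a marker of NK cells and activated CD8 T cells. Its arrays read 5.57, 5.39 and 5.55 in IDH1mut, 5.38, 5.56 and 5.58 in IDH1wt and 5.46, 5.74 and 5.44 in CTL cells. The groups overlapped, and the group means spanned less than the spread within the CTL group. The difference was -0.05 ± 0.11 in IDH1mut against CTL (95% interval -0.29 to 0.20, adjusted p = 0.825), -0.04 ± 0.11 in IDH1wt against CTL (-0.28 to 0.20, adjusted p = 0.89) and -0.01 ± 0.11 in IDH1mut against IDH1wt (-0.25 to 0.24, adjusted p = 0.981).

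Hcst, the adaptor gene, is transcribed in many hematopoietic cells besides NK cells. Its probe set was bright in all groups, at 10.26, 10.23 and 9.77 in IDH1mut, 9.96, 9.70 and 9.71 in IDH1wt and 9.96, 10.00 and 9.88 in CTL cells. Of the IDH1mut arrays, 2 stood above every other array, and the third lay among the IDH1wt arrays. The IDH1mut against CTL difference was 0.14 ± 0.13 (95% interval -0.15 to 0.44, adjusted p = 0.518). It was -0.15 ± 0.13 in IDH1wt against CTL (-0.45 to 0.14, adjusted p = 0.609). In IDH1mut against IDH1wt it was 0.30 ± 0.13 (0.0030 to 0.59), an unadjusted interval that leaves out 0, and did not pass after adjustment over all genes (adjusted p = 0.182). Without IDH1mut replicate 3 it was 0.46 ± 0.11 and passed (adjusted p = 0.0282).

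In IDH1mut against CTL, 0 of the 4 genes passed by limma (0 also at an unadjusted p below 0.05), beside 20.7% of all genes, 10.1% higher and 10.6% lower. For IDH1wt against CTL 1 of 4 was past the threshold, H60c, on the lower side, beside 2.33% of all genes (1.62% higher and 0.711% lower). H60c was also the 1 member past it in IDH1mut against IDH1wt, on the higher side, beside 13.3% (6.54% higher and 6.78% lower), and with Hcst 2 of 4 had an unadjusted p below 0.05 there. Since H60c was listed with its fall known, nothing is read from these counts. The shares are those at the adjusted threshold. For counts at an unadjusted p below 0.05, here and in the lists below, the share of all genes was not computed. Non-overlapping arrays were found for 0 of 4 genes in IDH1mut against CTL, beside 37.8% of all genes (16.3% higher and 21.5% lower). They were found for H60c alone in IDH1wt against CTL, beside 23.6% (10.7% higher and 12.9% lower), and for H60c alone in IDH1mut against IDH1wt, beside 29.5% (14.1% higher and 15.5% lower). The median difference of the 4 genes was -0.03 in IDH1mut against CTL, -0.17 in IDH1wt against CTL and 0.20 in IDH1mut against IDH1wt, beside medians of -0.04, -0.04 and 0.00 over all genes.

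**Figure D2:**
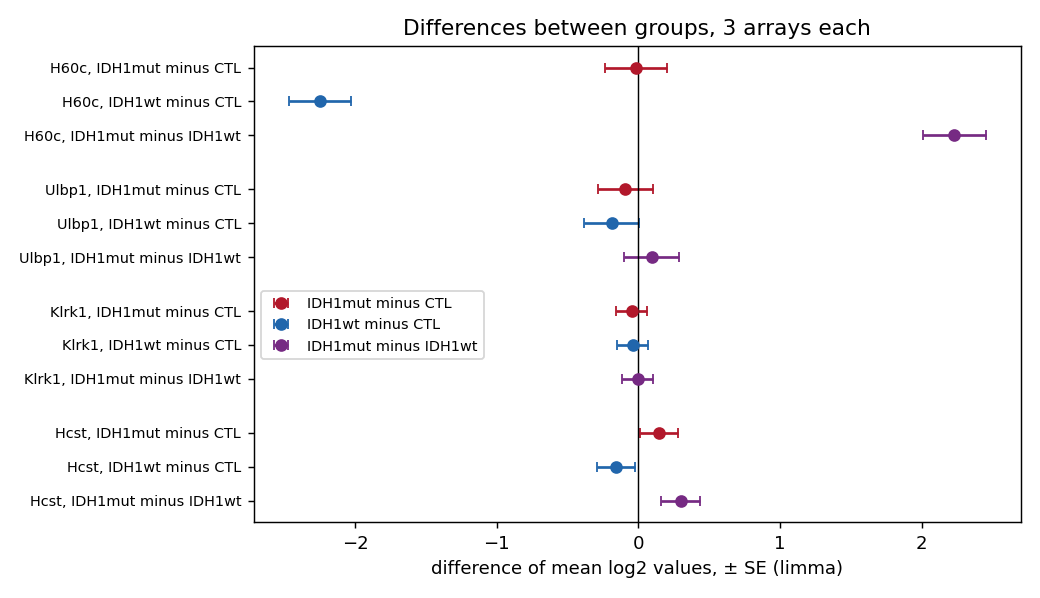
Differences of group means (points, log2 units) ± SE from the limma fit for the 4 genes in the 3 comparisons, with 3 arrays per group. The 2 differences of H60c that involve IDH1wt lie at -2.25 and 2.23, and the other 10 lie between -0.19 and 0.30.

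CTL replicate 2 had the highest CTL value of all 4 genes, at 6.18 for H60c, 4.38 for Ulbp1, 5.74 for Klrk1 and 10.00 for Hcst. Without this array the IDH1mut against CTL difference was 0.28 ± 0.16 for H60c, 0.12 ± 0.18 for Ulbp1 and 0.05 ± 0.11 for Klrk1, each with its sign turned and none past the threshold. Over the 9 arrays the Pearson correlation of H60c was 0.41 with Ulbp1, 0.30 with Klrk1 and 0.49 with Hcst, and that of Klrk1 with Hcst was -0.21, all as descriptions over arrays that share 3 groups.

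The genes whose 9 values ran most like those of H60c were Zpbp (Pearson r = 0.96), Akt1 (0.95), Adam22 (0.95), Crkl (0.94) and H3f3b (0.94). Their group means were lowest in IDH1wt, which choosing them by correlation with H60c makes nearly certain, and their spans were narrower. H3f3b, which encodes histone H3.3, averaged 9.49 in IDH1mut, 9.08 in IDH1wt and 9.54 in CTL cells, and the kinase gene Akt1 7.00, 6.79 and 7.03. Ulbp1 ran most like Car6 (0.96), Gnat2 (0.94), Dync2li1 (0.91), Fam131c (0.91) and Trip11 (0.90), and Klrk1 most like Dennd5b (0.96), Ripk4 (0.93), Flacc1 (0.91), Mob3b (0.91) and Kctd4 (0.91). For Hcst these were Comtd1 (0.99), Sertad1 (0.96), Cript (0.96), Nudt16 (0.95) and Dnajb1 (0.95). With 9 arrays and 17731 genes, correlations of this height arise for every member, and they are given for reference.

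The nearest measured genes on either side of each member were examined next, since shared position is one thing the choice of members did not use. Their distances differed widely, at 97.9 kb for Ppp1r14c, 232.6 kb for Cnksr3 and 116.2 kb for Lrp11. They were 11.5 kb for Klrd1, 12.4 kb for Klrc3, 0.13 kb for Tyrobp and 1.88 kb for Nfkbid. On the other side of H60c none was found. Ppp1r14c, the measured neighbour of H60c, which encodes a phosphatase inhibitor, averaged 4.17 ± 0.36 in IDH1mut, 4.32 ± 0.18 in IDH1wt and 4.12 ± 0.22 in CTL cells, and its IDH1wt against CTL difference was 0.20 ± 0.18 (adjusted p = 0.623). Of the neighbours of Ulbp1, Cnksr3, a scaffold gene of Ras signalling, fell in IDH1mut against CTL (-0.86 ± 0.13, adjusted p = 0.000858) and against IDH1wt (-0.61 ± 0.13, adjusted p = 0.00938), whereas Lrp11 was at 0.01 ± 0.13 and 0.08 ± 0.13. Klrk1 lies in the NK gene complex, with Klrd1 (CD94) and Klrc3 (NKG2E) as nearest measured genes, and neither passed in any comparison.

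Hcst lies next to Tyrobp, the gene of the other adaptor, DAP12, which also serves myeloid receptors. Tyrobp averaged 13.35 ± 0.10 in IDH1mut, 13.01 ± 0.01 in IDH1wt and 12.96 ± 0.01 in CTL cells, and it rose in IDH1mut against CTL by 0.39 ± 0.09 (adjusted p = 0.00887). Its rise against IDH1wt (0.34 ± 0.09, adjusted p = 0.0249) did not pass when any 1 of 5 arrays was left out, with a highest adjusted p of 0.0762 (IDH1mut replicate 1 left out). Nfkbid, on the other side of Hcst, encodes a nuclear inhibitor of NF-kB and rose in IDH1mut against CTL by 0.90 ± 0.12 (adjusted p = 0.000449) and against IDH1wt by 0.68 ± 0.12 (adjusted p = 0.00397). The Hcst difference, 0.14 ± 0.13 in IDH1mut against CTL, was smaller than that of both neighbours, and the differences between genes were not tested.

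**Figure D3:**
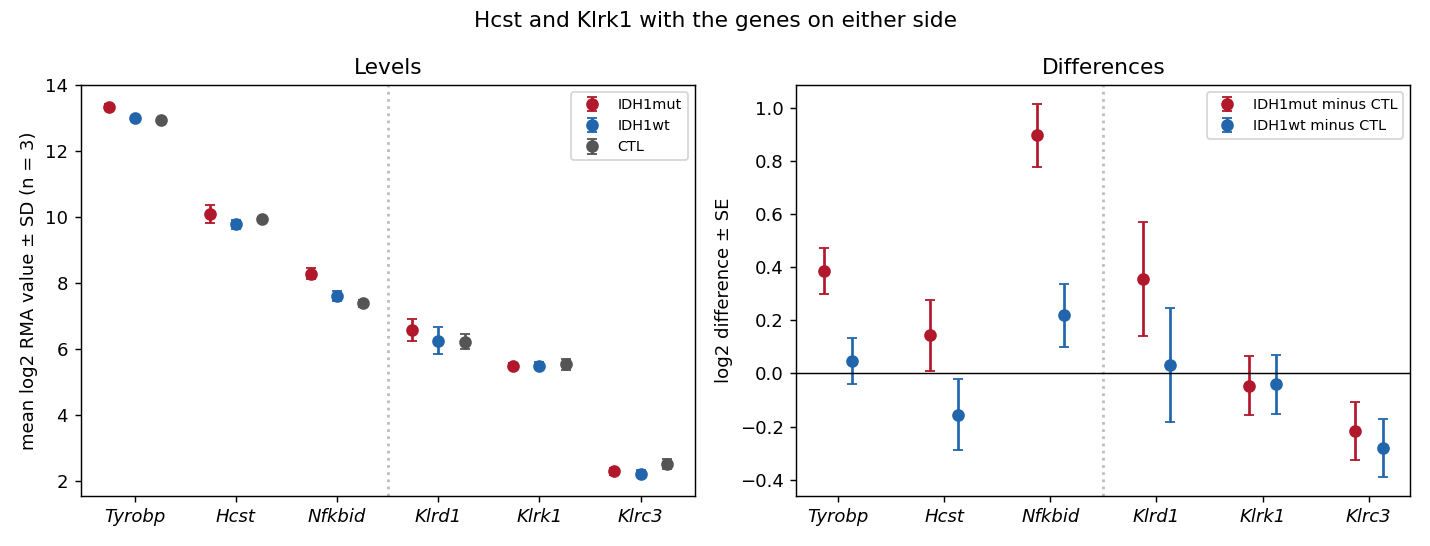
Left, mean log2 RMA values ± SD (3 arrays per group) of Hcst and Klrk1 and of the measured gene on either side of each. Right, the log2 differences ± SE of IDH1mut and IDH1wt against CTL. Tyrobp and Nfkbid sit at 0.39 and 0.90 in IDH1mut against CTL, Hcst at 0.14 and Klrk1 at -0.05; heights of different probe sets in the left panel are not comparable.

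Downstream of DAP10 and DAP12 act phosphatidylinositol 3-kinase, Vav exchange factors, the kinases SYK and ZAP70 and phospholipase C-gamma. This gene list and those below were chosen with earlier results of these data known, so their counts and p-values only describe these arrays. Over all genes, 10.1% rose and 10.6% fell in IDH1mut against CTL, and 6.54% and 6.78% in IDH1mut against IDH1wt. In IDH1wt against CTL these shares were 1.62% and 0.711%. Of 15 measured genes of this signalling list, 2 rose and 3 fell in IDH1mut against CTL, with a median difference of 0.08. The catalytic subunit gene Pik3cb rose (0.58 ± 0.10, adjusted p = 0.00179), as did Tyrobp. Vav2 (-0.73 ± 0.15, adjusted p = 0.00572), Pik3cd (-0.39 ± 0.10, adjusted p = 0.0137) and the regulatory subunit gene Pik3r1 (-0.37 ± 0.09, adjusted p = 0.0159) fell. The calls of Pik3cd and Pik3r1 were lost without CTL replicate 1 or 3, at adjusted p up to 0.0509 and 0.0645. Between IDH1mut and IDH1wt, Pik3cb (0.68 ± 0.10), Syk (0.56 ± 0.14) and Tyrobp rose and Vav2 (-0.74 ± 0.15) and Pik3r1 (-0.51 ± 0.09) fell, Syk failing the test with IDH1wt replicate 3 or IDH1mut replicate 2 or 3 left out (highest adjusted p = 0.0885). For IDH1wt against CTL 0 of 15 passed by limma, and 3 had an unadjusted p below 0.05.

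NKG2D ligands leave the cell surface through proteases of the ADAM and matrix metalloproteinase families, and MULT1 is removed through the ubiquitin ligases MARCH4 and MARCH9. Of 9 measured genes of shedding and surface control, 2 rose and 1 fell in IDH1mut against CTL (median 0.02), beside 10.1% and 10.6% of all genes. Mmp9, the gelatinase of neutrophil granules, rose by 0.69 ± 0.11 (adjusted p = 0.0011) and Adam10 by 0.58 ± 0.12 (adjusted p = 0.00624). Pdia6, a disulphide isomerase that in human cells helps to shed the ligand MICA, fell (-0.55 ± 0.12, adjusted p = 0.00657). Marchf4 (-0.03 ± 0.09) and Marchf9 (0.02 ± 0.11) did not pass. Against IDH1wt, Mmp9 rose (0.40 ± 0.11) and Pdia6 fell (-0.49 ± 0.12) in IDH1mut, and each failed the test with some single arrays left out, Mmp9 for 4 (highest adjusted p = 0.0949) and Pdia6 for 3 (0.0774). For IDH1wt against CTL 0 of 9 passed by limma (1 at an unadjusted p below 0.05).

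Ligand genes are known to be induced through the DNA damage kinases, E2F factors and stress-responsive factors, and to be silenced by histone deacetylases and methylation. Of 21 measured genes of such regulators, 0 rose and 7 fell in IDH1mut against CTL, with a median of 0.01. Of all genes 10.1% rose and 10.6% fell. The list mixes inducers and silencers, so its count has no single meaning for the ligand genes. The transcription factor genes Jun (-2.62 ± 0.16, adjusted p = 3.25e-06), Egr1 (-2.24 ± 0.21, adjusted p = 5.71e-05), Fos (-0.90 ± 0.28, adjusted p = 0.0449) and Myc (-0.47 ± 0.10, adjusted p = 0.00613) fell most. The other 3, named after their values were seen, were Dnmt1, E2f1 and Dnmt3a. Fos did not pass when any 1 of 7 arrays was left out (highest adjusted p = 0.162, IDH1mut replicate 3 left out), nor Dnmt3a for any 1 of 5 (0.123, CTL replicate 1 left out).

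For IDH1wt against CTL, 3 of the 21 regulators fell and 0 rose: Egr1 (-2.21 ± 0.21), Jun (-1.84 ± 0.16) and Fos (-1.73 ± 0.28), the last with a call lost without CTL replicate 1 or IDH1wt replicate 3 (adjusted p up to 0.0506). Egr1 averaged 6.62 ± 0.32 in IDH1mut, 6.66 ± 0.42 in IDH1wt and 8.87 ± 0.17 in CTL cells. Against IDH1wt, 0 rose and 4 fell in IDH1mut, namely Jun (-0.78 ± 0.16), E2f1 (-0.43 ± 0.10), Dnmt1 (-0.39 ± 0.09) and Myc (-0.37 ± 0.10), Dnmt1 failing the test when any 1 of 2 arrays was left out (highest adjusted p = 0.0546) and Myc for any 1 of 4 (0.0867).

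Among ligands of other NK cell receptors, listed together with the NK cell cytokine gene Il15, 3 of 17 rose and 4 fell in IDH1mut against CTL (median 0.00). The shares of all genes there were 10.1% and 10.6%. Il15 averaged 8.41 ± 0.16 in IDH1mut, 7.39 ± 0.10 in IDH1wt and 7.28 ± 0.24 in CTL cells, and rose by 1.13 ± 0.13 against CTL (adjusted p = 0.000203). It also rose against IDH1wt (1.02 ± 0.13, adjusted p = 0.000745). Cd80 (1.01 ± 0.12, adjusted p = 0.000201) and Cd86 (0.74 ± 0.18, adjusted p = 0.0148), the ligands of CD28, rose against CTL, Cd86 with a call lost without CTL replicate 1 or 3 (adjusted p up to 0.0505).

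Nectin2 and Pvr encode the ligands of the activating receptor DNAM-1, and both fell in IDH1mut against CTL. Nectin2 averaged 4.75 ± 0.03 in IDH1mut, 4.99 ± 0.10 in IDH1wt and 5.54 ± 0.12 in CTL cells. Its IDH1mut against CTL difference was -0.78 ± 0.10 (adjusted p = 0.000301). It also fell in IDH1wt against CTL (-0.54 ± 0.10, adjusted p = 0.0154), but not when CTL replicate 1, CTL replicate 3 or IDH1wt replicate 2 was left out (highest adjusted p = 0.0739). Pvr fell by 0.45 (-0.45 ± 0.11, adjusted p = 0.0134), but not with CTL replicate 3 or IDH1mut replicate 2 left out (highest 0.0549). Cd48, the ligand of the receptor 2B4, fell by 0.61 (-0.61 ± 0.11, adjusted p = 0.00335), and Icam1 (-0.43 ± 0.11, adjusted p = 0.0163) fell with a call lost without CTL replicate 1 or 3 (up to 0.0708). The MHC class I heavy chain genes H2-K1 (0.17 ± 0.08) and H2-D1 (-0.06 ± 0.09) and the light chain gene B2m (0.05 ± 0.08) did not pass. H2-D1 averaged only 5.46 in IDH1mut, 5.31 in IDH1wt and 5.52 in CTL cells. How well its probe set reports the transcript was not tested. Nectin2 was the 1 gene of 17 past the threshold in IDH1wt against CTL. Between IDH1mut and IDH1wt, Il15 and Cd80 (0.68 ± 0.12) rose and Cd48 (-0.61 ± 0.11) and Icam1 (-0.45 ± 0.11) fell, Icam1 failing the test when any 1 of 4 arrays was left out (highest adjusted p = 0.0645).

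**Figure D4:**
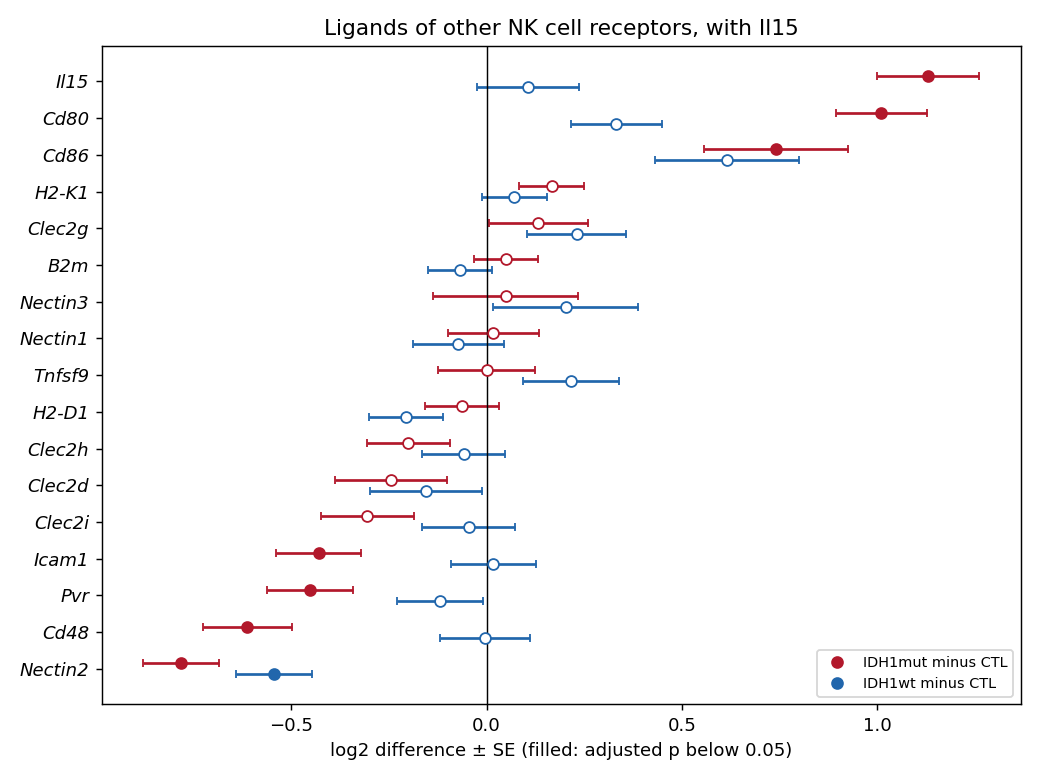
Log2 differences ± SE of IDH1mut and IDH1wt against CTL (3 arrays per group) for the 17 genes of this list, ligands of other NK cell receptors and Il15; filled points have an adjusted p below 0.05. Il15 at 1.13 and Cd80 at 1.01 lie highest and Nectin2 at -0.78 lowest in IDH1mut against CTL.

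Markers of the cells that carry NKG2D were examined because a sort by vector fluorescence can hold lymphoid cells. Of 15 measured NK cell markers, 11 had all group means below the array median. The rest, Klrd1, Cd244a, Gzmb and Cd7, averaged above it in every group. Ncr1, which encodes the NK receptor NKp46, read 3.74 ± 0.16 in IDH1mut, 3.53 ± 0.13 in IDH1wt and 3.65 ± 0.11 in CTL cells. The level summed over the list, on the log2 scale, ran from 8.79 to 8.97 on IDH1mut arrays, 8.55 to 8.96 on IDH1wt arrays and 8.72 to 8.80 on CTL arrays. Bright probe sets such as that of Cd244a (6.64 in IDH1mut cells) weigh most in this sum, so it is no measure of NK cell number. In IDH1mut against CTL 2 of 15 rose and 0 fell, beside 10.1% and 10.6% of all genes. Those that rose were Klrc1 (0.79 ± 0.19, adjusted p = 0.0125) and Klrb1b (0.48 ± 0.13, adjusted p = 0.0206). Klrb1b failed the test when any 1 of 4 arrays was left out (highest adjusted p = 0.081, IDH1mut replicate 3 left out). Klrb1b averaged 2.44 ± 0.22 in IDH1mut and 1.96 ± 0.17 in CTL cells, close to the lowest value on any array, 1.72, so its difference is not a measured size. Klrc1 also rose in IDH1mut against IDH1wt (1.32 ± 0.19, adjusted p = 0.00143). It averaged 4.18 in IDH1mut, 2.86 in IDH1wt and 3.39 in CTL cells, below the array medians, where differences are compressed. For IDH1wt against CTL 0 of 15 passed by limma (4 at an unadjusted p below 0.05).

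Of 12 T cell markers, 5 had all group means below the array median. In IDH1mut against CTL 5 of the 12 rose and 0 fell, beside 10.1% and 10.6% of all genes. The rises were led by Cd247 (0.93 ± 0.18, adjusted p = 0.00343) and Cd3g (0.74 ± 0.20, adjusted p = 0.0219). Cd247 averaged 4.77 in IDH1mut, 3.47 in IDH1wt and 3.84 in CTL cells, and Cd5 3.85, 3.36 and 3.45. These means lay below the array medians, where differences are compressed. Cd3g failed the test with CTL replicate 2 left out (highest 0.0837). With IDH1mut replicate 2 or 3 left out, 3 of the 5 that rose, Cd3g, Cd3d and Cd5, failed it. Between IDH1mut and IDH1wt, where H60c differed by 2.23, 4 of the 12 rose and 0 fell, beside 6.54% and 6.78% of all genes. Of these, Cd5 failed the test when any 1 of 4 arrays was left out (highest adjusted p = 0.0722). Cd3e, of the T cell receptor complex, read 5.91 ± 0.19 in IDH1mut, 5.69 ± 0.07 in IDH1wt and 5.86 ± 0.06 in CTL cells and did not pass. The summed level of the list ran from 9.06 to 9.48 on IDH1mut, 8.84 to 8.93 on IDH1wt and 8.81 to 9.05 on CTL arrays. Bright probe sets weigh most in this sum too. For IDH1wt against CTL 0 of 12 passed by limma (1 at an unadjusted p below 0.05). In IDH1mut against CTL, beside 10.1% and 10.6% of all genes, 2 of 9 myeloid markers rose and 5 fell. Of stem and progenitor markers 4 of 7 rose and 1 fell, and 1 of 5 B cell markers rose and 0 fell. The B cell gene was Vpreb1, of the surrogate light chain, which rose by 1.64 against CTL and by 2.53 against IDH1wt. Against CTL it failed the test with CTL replicate 1, CTL replicate 3 or IDH1mut replicate 3 left out (highest adjusted p = 0.0739). The summed level of the B cell list ran from 9.57 to 10.79 on IDH1mut, 7.66 to 9.04 on IDH1wt and 8.67 to 9.78 on CTL arrays. Bright probe sets such as that of Vpreb1 (9.63 in IDH1mut cells) weigh most in it. Between IDH1mut and IDH1wt, beside 6.54% and 6.78% of all genes, 2 of 9 myeloid markers rose and 5 fell. Of stem and progenitor markers 4 of 7 rose and 0 fell, and 1 of 5 B cell markers rose and 0 fell. Flt3, a stem and progenitor marker that rose in both comparisons, failed the test against CTL without CTL replicate 1 or 3 (highest adjusted p = 0.0637). Against IDH1wt it failed when any 1 of 5 arrays was left out (highest adjusted p = 0.0976). Of the myeloid genes that rose there, Csf3r failed the test with IDH1wt replicate 1 or IDH1mut replicate 1 left out (highest adjusted p = 0.0577). The myeloid, stem and B cell lists had 0 genes past the threshold by limma in IDH1wt against CTL, with 2, 1 and 0 at an unadjusted p below 0.05. The part of these cell types in the values of the members, H60c included, and of the other genes described was not tested.

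**Figure D5:**
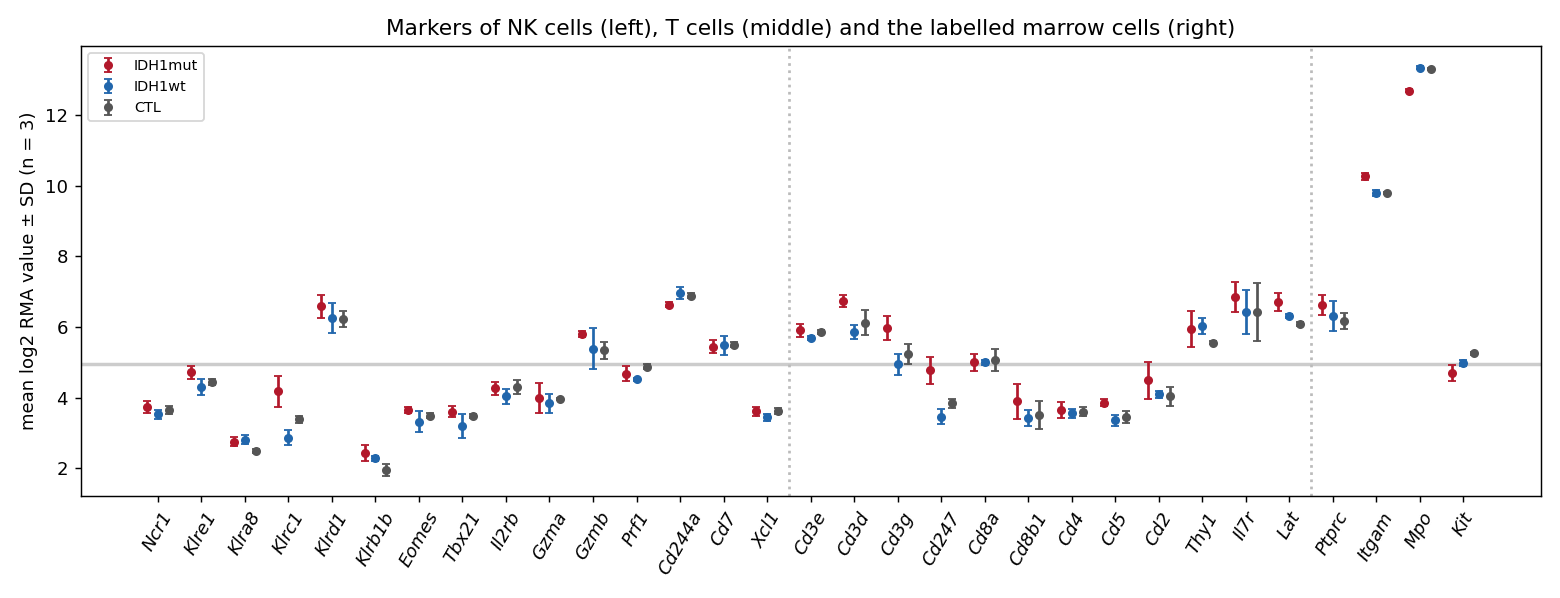
Mean log2 RMA values ± SD (3 arrays per group) of all measured NK cell markers (left), T cell markers (middle) and 4 markers of the labelled marrow cells (right), with the range of array medians as a grey band. Ncr1 lies at 3.53 to 3.74 and Mpo at 12.69 to 13.35 across the groups.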

How the data were processed

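The authors deposited log2 expression values per probe set of 9 arrays; RMA, which corrects background, quantile-normalises and summarises, is the only step named per the submitters' processing notes, with no version. Of 20877 probe sets, 17815 had 1 gene symbol, 244 several and 2818 none in a platform annotation, and the last 2 kinds were left out. The brightest probe set per gene was kept. Differences come from limma 3.58.1 (R 4.3.3), as a 1-way layout of the 3 groups over 9 arrays with moderated two-sided contrasts adjusted by Benjamini-Hochberg over 17731 genes (threshold 0.05). Intervals are 95% moderated intervals, unadjusted. The procedure was tested on simulated data. No 2 arrays were identical; nothing says whether replicates were separate mice, so p-values measure the spread between these samples. RMA values carry no detection call, and the number of arrays limits the precision.

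The members and gene lists were chosen with earlier results of these data known. Genes were named by rule: the members, all measured other ligands, up to 4 genes past the threshold per list and direction, set markers, the 5 genes most correlated with each member, and the nearest measured gene on each side by RefSeq GRCm38.p6, leaving out clone-like symbols. Same-numbered replicates did not deviate together (correlations of deviations from -0.09 to 0.03), and the labels do not tie them to shared mice. Alternatives were averaged probe sets, brighter genes only, a repeated quantile normalisation, median-centred arrays, a fit of 6 arrays, a trended robust spread, array weights, the replicate block and leaving out each array.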

Additional observations from a re-analysis of the deposited data

How the results depend on the processing

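The H60c differences that involve IDH1wt kept their direction under every alternative that could change them. They ran from -2.43 to -1.95 in IDH1wt against CTL and from 2.10 to 2.37 in IDH1mut against IDH1wt. Averaging probe sets could not change them, since H60c had 1 probe set. The fit of only the compared arrays, the trended robust spread and the replicate block change the SE and not these differences. The same holds for leaving out an array of the group not compared. H60c and Ulbp1 are below the median of all genes by mean, so the brighter genes alone gave no value for them. Differences near 0 changed sign without passing: H60c in IDH1mut against CTL was 0.066 with array weights, Klrk1 was 0.017 in IDH1mut against IDH1wt after a repeated quantile normalisation and 0.027 in IDH1wt against CTL with array weights. The causes were not tested. Leaving out each array gave, in IDH1mut against CTL, -0.20 to 0.28 for H60c, -0.22 to 0.12 for Ulbp1 and -0.10 to 0.050 for Klrk1. In IDH1wt against CTL it gave -0.31 to 0.022 for Ulbp1 and -0.095 to 0.056 for Klrk1. In IDH1mut against IDH1wt it gave -0.079 to 0.19 for Ulbp1, -0.069 to 0.051 for Klrk1 and 0.21 to 0.46 for Hcst, which passed only without IDH1mut replicate 3. 

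The number of genes past the threshold, 3663 in IDH1mut against CTL, 414 in IDH1wt against CTL and 2363 in IDH1mut against IDH1wt, ran from 2370 to 3805, 132 to 570 and 1475 to 2193 on leaving out each array. It moved by over 1.5 times without CTL replicate 1 in IDH1mut against CTL (2370), without CTL replicate 1 (132), CTL replicate 3 (145), IDH1wt replicate 2 (211) or IDH1wt replicate 3 (145) in IDH1wt against CTL, and without IDH1wt replicate 3 (1475) or IDH1mut replicate 2 (1528) in IDH1mut against IDH1wt. In IDH1wt against CTL array weights gave 1226 and the trended robust spread 717. With the replicate block the counts were 3383, 314 and 2035, and no member changed its call. Each replicate number occurs once per group, so the block changes the SE but cannot change a difference of group means. Of the other named genes, calls were also lost in the fit of 6 arrays for Fos in IDH1mut against CTL (adjusted p = 0.0682) and for Tyrobp (0.0642), Syk (0.0601) and Myc (0.066) in IDH1mut against IDH1wt. The trended robust spread lost Fos (0.142) and Vpreb1 (0.0812) in IDH1mut against CTL and Fos in IDH1wt against CTL (0.0572). The replicate block lost Cd5 in IDH1mut against CTL (0.0578) and Flt3 in IDH1mut against IDH1wt (0.0508). The low levels of Ulbp1 and, in IDH1wt cells, of H60c limit what could be seen of them.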
